A study of Mus musculus with 11 samples.

Results

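The 9 genes described here are nuclear receptors of liver metabolism and of the response to foreign compounds: Nr1i2, Nr1i3, Nr1h3, Hnf4a, Nr5a2, Rxra, Esrra, Thrb and Nr4a1. Their probes were all those of the non-normalized array table whose gene symbol matched one of the 9 names, which gave 18 of 45281 probes, for 9 of 31508 gene symbols. The study profiled liver total RNA of female C57Bl/6 mice with Illumina bead arrays, 1 array per animal. Mice had received an injection of 5'-adenosine monophosphate (5'-AMP), a nucleotide used here to bring on a state of lowered metabolism, at a dose of 0.5 mg per g of body weight, or vehicle. The groups were 4 mice killed 6 h after 5'-AMP, 4 mice killed 12 h after 5'-AMP and 3 control mice given vehicle. The labels do not say how long after the injection the control mice were killed, so the hour of day cannot be told apart from the treatment. All animals carry the same genetic background and no engineered allele is named.

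Nuclear receptors are transcription factors that bind short DNA elements built around a shared hexamer, many of them switched by a fat-soluble ligand. In liver, Nr1i2 (PXR) and Nr1i3 (CAR) sense drugs and bile acids, Nr1h3 (LXRalpha) senses oxysterols, and Thrb carries the main hepatic thyroid hormone signal. Rxra is the partner with which these receptors bind DNA, whereas Hnf4a, Nr5a2 (LRH-1), Esrra (ERRalpha) and Nr4a1 (Nur77) are counted among the orphan receptors and govern hepatocyte identity, bile acid synthesis, mitochondrial genes and the early response to stimuli.

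RefSeq promoter windows (build GRCm38.p6, from 250 bases before to 50 bases after a transcription start) were found for all 9 genes, 14 windows in all. Those of 2 genes are printed, Esrra because one of its probes gave the only call among the 9 genes and Nr4a1 because it is a textbook stimulus-induced gene whose probe gave no signal. The Esrra window lies at chr19:6921759-6922058 on the minus strand and the Nr4a1 window at chr15:101266596-101266895 on the plus strand, and both are written 5′ to 3′ along the gene.
Esrra: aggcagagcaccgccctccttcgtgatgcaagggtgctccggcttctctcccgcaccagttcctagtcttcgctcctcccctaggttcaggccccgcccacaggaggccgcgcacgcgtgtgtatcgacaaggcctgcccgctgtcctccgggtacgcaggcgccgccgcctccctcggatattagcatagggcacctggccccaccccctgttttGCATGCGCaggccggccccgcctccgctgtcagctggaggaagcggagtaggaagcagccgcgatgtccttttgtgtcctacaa
Nr4a1: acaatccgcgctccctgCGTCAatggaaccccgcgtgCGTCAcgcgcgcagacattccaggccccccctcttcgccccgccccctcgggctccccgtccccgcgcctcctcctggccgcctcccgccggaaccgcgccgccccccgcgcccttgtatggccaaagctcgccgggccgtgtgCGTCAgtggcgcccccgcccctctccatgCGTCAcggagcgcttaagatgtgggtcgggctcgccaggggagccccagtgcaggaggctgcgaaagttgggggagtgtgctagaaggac
Capitals in the Esrra window mark GCATGCGC, part of the element bound by nuclear respiratory factor Nrf1, which starts 34 bases before the transcription start. This motif was chosen after the sequence had been seen, and 2.71% of the 32851 RefSeq mouse promoter windows of the same length hold it on either strand. Capitals in the Nr4a1 window mark CGTCA, the cAMP response half-site, which starts 233, 213, 69 and 40 bases before the start and which 20.8% of all windows hold on either strand. The full palindrome TGACGTCA, which contains CGTCA, stood in 0 of the 14 windows and in 1.79% of all windows. The nuclear receptor hexamer AGGTCA stood in 3 of the 14 windows, those of Nr5a2, Rxra and Thrb, and in 16.3% of all windows. Its longer forms AAGGTCA (4.72% of all windows) and AAAGGTCA (1.51% of all windows) contain it and were found among these windows in that of Rxra alone. These matches describe the letters of the windows and are not evidence of binding.

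Of the 18 probes, 14 were detected on all 11 arrays, with detection meaning a p-value against the array's negative control beads under 0.05. A further 2 probes, 1 of Nr1i3 and 1 of Nr5a2, were detected on 3 arrays each, and the single probes of Thrb and Nr4a1 on none. Hence 16 probes of 7 genes met the requirement of detection on at least 3 arrays and were tested, and no change can be given for Thrb or Nr4a1. The arrays were alike in yield: 15403 to 15903 probes were detected at 6 h, 15131 to 15589 at 12 h and 15174 to 15663 in controls. Levels below are normalized log2 bead signals, and each change is a difference of group means on that log2 scale with its standard error. The p-values are limma's moderated ones, adjusted by Benjamini-Hochberg over all 16978 tested probes within each comparison, with a threshold of 0.05. The arrays are samples of liver tissue, in which fewer cells of a type and less RNA per cell cannot be told apart.

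At 6 h after 5'-AMP, 1 of the 16 tested probes passed the test, a probe of Esrra that was lower in treated livers, beside 0.807% of all tested probes called (0.542% called higher and 0.265% called lower). At 12 h 0 of the 16 passed, beside 2.69% of all tested probes (1.63% called higher and 1.05% called lower). Without adjustment, a p under 0.05 was reached by 4 of the 16 at 6 h and 5 at 12 h, beside 15.9% and 17.6% of all tested probes. Groups that did not overlap, with every treated liver below every control liver, were found in 4 of the 16 at 6 h and 5 at 12 h, beside 6.69% and 10.6% of all tested probes. At both times those probes belonged to Esrra, Nr1i2 and Nr1i3 alone. Probes of 1 gene are not independent of each other, so counts among the 16 are not counts of genes. Every treated liver lay above every control liver in 0 of the 16 at 6 h and 1 at 12 h, beside 6.61% and 9.92% of all tested probes. The changes ran from -0.55 to 0.20 at 6 h, with 13 of 16 below zero beside 51.6% of all tested probes, and from -0.43 to 0.32 at 12 h, with 9 of 16 below zero beside 53.5% of all tested probes. Their median was -0.07 at 6 h and -0.14 at 12 h, and that of all tested probes -0.01 at 6 h and -0.02 at 12 h. For the 14 probes detected on all 11 arrays, all 14 of the 95% intervals, unadjusted for their number, lay within a 2-fold change in either direction at both times. Their farthest limit was 0.79 at 6 h and 0.85 at 12 h on the log2 scale.

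**Figure D1:**
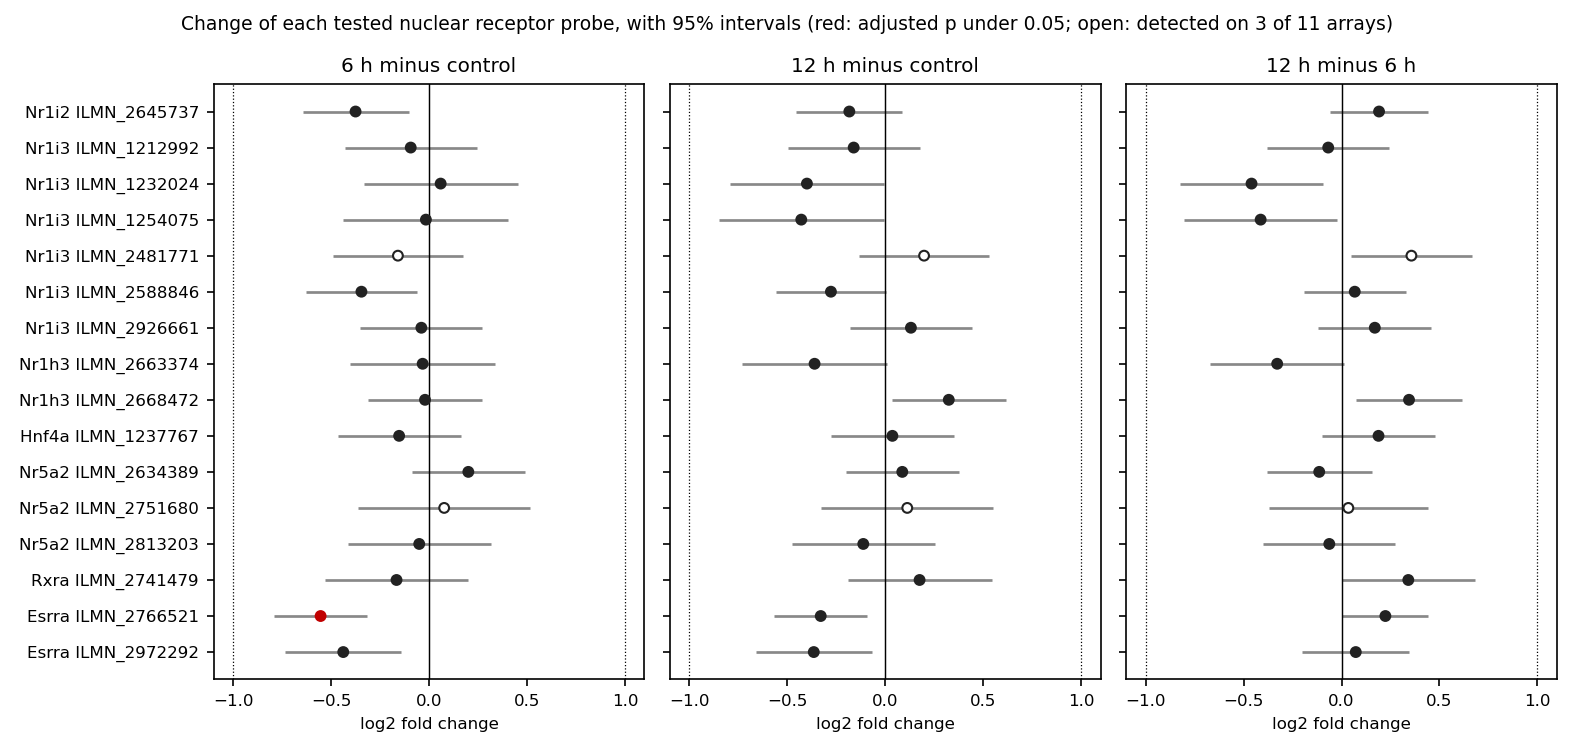
Change of the 16 tested probes in log2 units, for each treated group relative to controls (left and middle panels) and for 12 h relative to 6 h (right panel), with 95% intervals unadjusted for their number, and with dotted lines at a 2-fold change. The Esrra probe ILMN_2766521 at 6 h is the only one whose adjusted p is under 0.05, and no interval of the 14 probes detected on all arrays reaches a 2-fold change; the intervals of the probes drawn open, which were detected on 3 arrays, lie near background and set no such limit.

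Esrra was the only one of the 9 receptors with a called change. Its protein acts with the coactivator Ppargc1a on genes of oxidative phosphorylation and fatty acid oxidation. Probe ILMN_2766521 read 7.84, 7.90, 7.77 and 7.72 in the livers at 6 h, 8.0, 7.96, 8.11 and 8.06 in the livers at 12 h, and 8.26, 8.41 and 8.41 in control livers. Every treated liver lay below every control liver, and every liver at 12 h lay above every liver at 6 h. Group means were 7.81 ± 0.08 (SD, n = 4) at 6 h, 8.03 ± 0.07 (SD, n = 4) at 12 h and 8.36 ± 0.09 (SD, n = 3) in controls. The change at 6 h was -0.55 ± 0.11 (SE), so that the level fell by 31.9%, with an adjusted p of 0.0385 by limma and a 95% interval from -0.79 to -0.32. At 12 h it was -0.33 ± 0.11 with an adjusted p of 0.144, and 12 h against 6 h gave 0.22 ± 0.10 with an adjusted p of 0.335. The order of the means was therefore 6 h, 12 h and control from low to high, and of its neighbours neither 12 h and 6 h nor 12 h and control differed past the threshold. Before normalization the bead signals of the groups overlapped, at 284 to 400 at 6 h, 285 to 338 at 12 h and 329 to 447 in controls.

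The other Esrra probe, ILMN_2972292, was also lower in every treated liver than in every control liver but did not pass the test. It read 8.76, 9.20, 8.96 and 8.84 at 6 h, 9.0, 8.96, 9.22 and 8.87 at 12 h, and 9.42, 9.30 and 9.42 in controls. Its change was -0.44 ± 0.14 at 6 h (adjusted p = 0.160, limma) and -0.36 ± 0.14 at 12 h (adjusted p = 0.187, limma). Across the 11 arrays, which include the group differences, the probes of Esrra had a Pearson correlation of 0.81, given as a description of 1 gene measured at 2 places.

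The Esrra call at 6 h rests on few arrays. Leaving out any array but array 2 at 6 h ended it, with adjusted p between 0.0542 and 0.160 by limma, and without that array the adjusted p was 0.0448. The change kept its sign in all 22 alternative fits and ran from -0.60 to -0.37, with the adjusted p under 0.05 in 8 of them. The -0.37 came from median centring of the arrays, which moved the median change of all probes at 6 h to 0.13 and gave an adjusted p of 0.231. The column headers place the arrays on 5 BeadChips, and within the 3 chips that hold 6 h and control arrays ILMN_2766521 differed by -0.54, -0.64 and -0.54. Within the 2 chips that hold 12 h and control arrays it differed by -0.20 and -0.45. For ILMN_2972292 the within-chip differences were -0.58, -0.34 and -0.44 at 6 h and -0.55 and -0.34 at 12 h. With chip as a fixed block the change of ILMN_2766521 at 6 h was -0.57 with an adjusted p of 0.128.

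**Figure D2:**
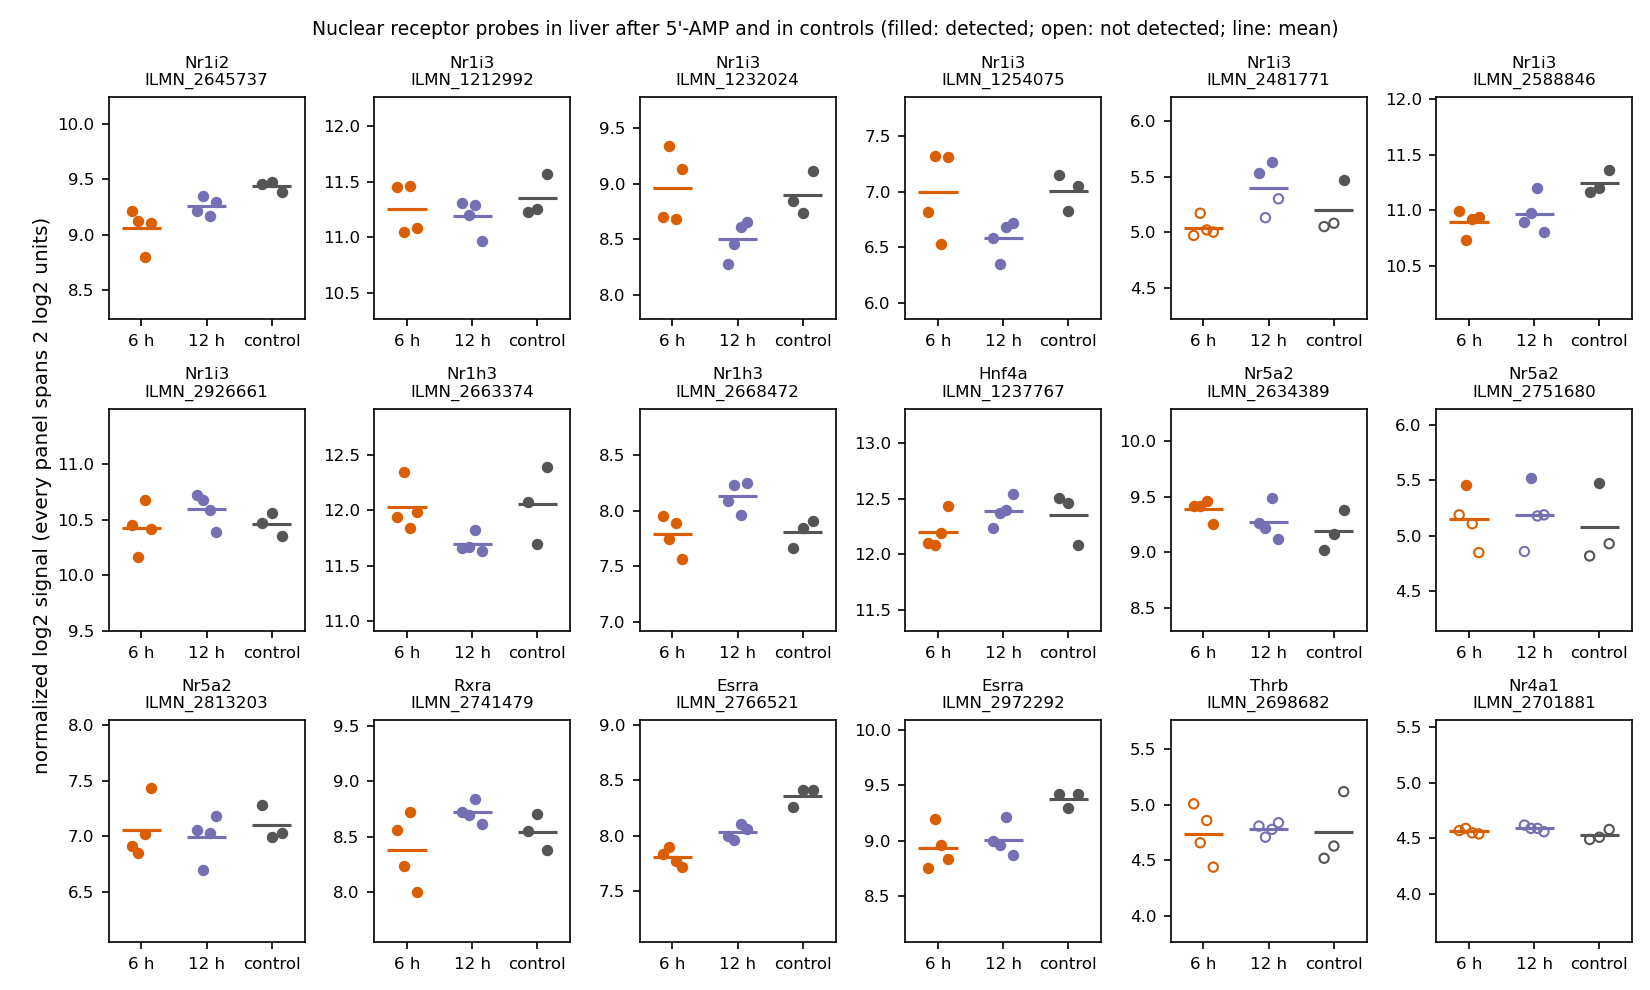
Normalized log2 level of each of the 18 probes on every array, with 6 h left of 12 h and control at the right of each panel; points are animals, bars are group means, and open points are arrays on which the probe was not detected. Both Esrra probes lie lower in all treated livers than in all control livers, and the Thrb and Nr4a1 probes are not detected on any array.

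The xenobiotic receptors Nr1i2 and Nr1i3, which induce drug-metabolizing cytochromes P450 and transporters, showed no change past the threshold. Nr1i2 (ILMN_2645737) read 9.22, 9.13, 8.80 and 9.11 at 6 h, 9.22, 9.35, 9.17 and 9.30 at 12 h, and 9.46, 9.48 and 9.39 in controls. All 8 treated livers lay below the 3 control livers, by -0.37 ± 0.12 at 6 h (adjusted p = 0.185, limma) and -0.18 ± 0.12 at 12 h (adjusted p = 0.471, limma). Within chips it differed by -0.35, -0.67 and -0.21 at 6 h and by -0.16 and -0.13 at 12 h. Of the 16 tested probes, the 2 of Esrra and that of Nr1i2 were lower in all treated livers at both times, a pattern that 2.87% of all tested probes had.

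Nr1i3 is covered by 6 probes, which did not move together. At 6 h ILMN_2588846 was the only one of them to lie below all controls, at 10.99, 10.73, 10.92 and 10.94 in the livers at 6 h and 10.89, 10.97, 11.20 and 10.80 in those at 12 h, against 11.16, 11.20 and 11.36 in controls. Its change was -0.34 ± 0.13 at 6 h (adjusted p = 0.229, limma) and -0.28 ± 0.13 at 12 h (adjusted p = 0.290, limma). At 12 h the probes that lay below all controls were ILMN_1232024 and ILMN_1254075 instead.

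ILMN_1232024 read 8.70, 9.34, 8.68 and 9.13 at 6 h, 8.28, 8.46, 8.61 and 8.66 at 12 h, and 8.85, 8.74 and 9.12 in controls. ILMN_1254075 read 6.82, 7.32, 6.53 and 7.31 at 6 h, 6.58, 6.35, 6.68 and 6.72 at 12 h, and 7.15, 6.83 and 7.05 in controls. Livers at 6 h thus straddled the control range for both probes, and those at 12 h lay under it. The change at 12 h was -0.40 ± 0.18 for ILMN_1232024 and -0.43 ± 0.19 for ILMN_1254075, with an adjusted p of 0.275 for each by limma. The same pair followed each other over the 11 arrays with a correlation of 0.89.

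The remaining Nr1i3 probes did not pass the test in any comparison. ILMN_1212992 read 11.05 to 11.46 at 6 h, 10.97 to 11.31 at 12 h and 11.23 to 11.57 in controls, with changes of -0.09 ± 0.15 at 6 h and -0.16 ± 0.15 at 12 h. ILMN_2926661 read 10.16 to 10.68 at 6 h, 10.39 to 10.72 at 12 h and 10.35 to 10.56 in controls, with changes of -0.04 ± 0.14 and 0.13 ± 0.14 at those times. This probe ran opposite to the correlated pair, with correlations of -0.87 with ILMN_1232024 and -0.82 with ILMN_1254075 over the 11 arrays. The dimmest Nr1i3 probe, ILMN_2481771, was detected on 0 of 4 arrays at 6 h, 2 of 4 at 12 h and 1 of 3 in controls, so its levels stand close to background in every group. It read 4.97 to 5.17 at 6 h, 5.13 to 5.63 at 12 h and 5.05 to 5.47 in controls. Against 6 h, where it was not above background, it did not pass at 12 h (adjusted p = 0.272, limma), and the ranges overlapped. The ratio of these means was at least 1.04, without a sampling error, and for 6 h against control no fold can be given.

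**Figure D3:**
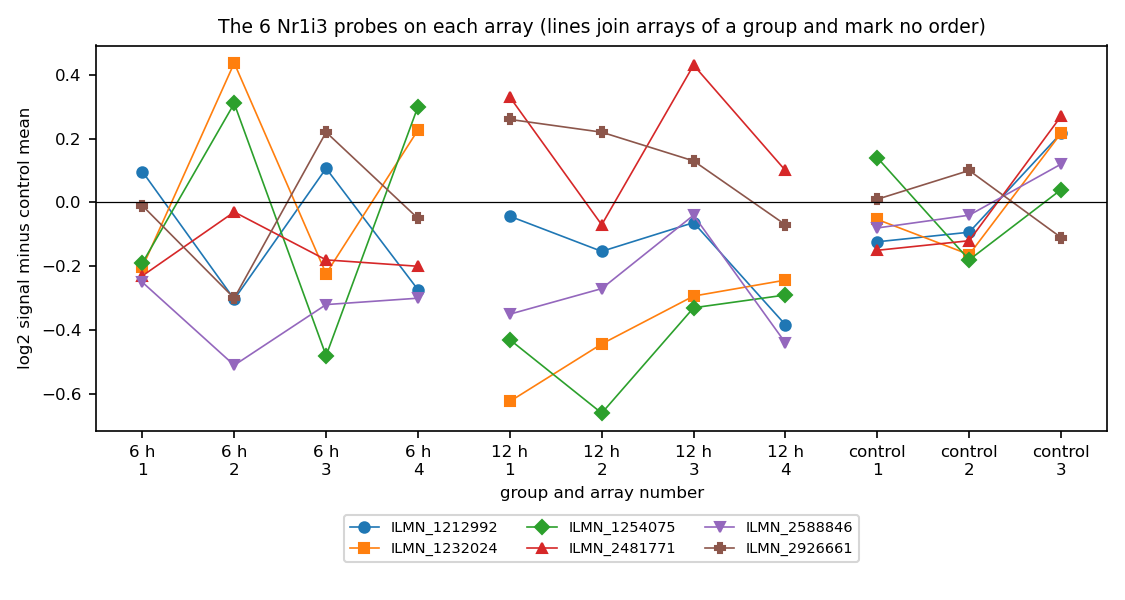
Level of each of the 6 Nr1i3 probes on the 11 arrays as a log2 difference from the mean of the control livers for that probe, with 6 h left of 12 h and control at the right. ILMN_1232024 and ILMN_1254075 lie under all controls at 12 h, while ILMN_2588846 lies under all controls at 6 h.

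Nr1h3, the oxysterol receptor that drives cholesterol export and fatty acid synthesis, had 2 probes whose differences at 12 h had opposite signs. ILMN_2663374 read 11.94, 12.34, 11.84 and 11.98 at 6 h, 11.66, 11.67, 11.82 and 11.63 at 12 h, and 12.07, 11.70 and 12.39 in controls. ILMN_2668472 read 7.95, 7.74, 7.89 and 7.56 at 6 h, 8.09, 8.23, 7.96 and 8.25 at 12 h, and 7.66, 7.84 and 7.91 in controls. With ILMN_2668472 all livers at 12 h lay above all control livers, and with ILMN_2663374 the ranges overlapped. The change at 12 h was -0.36 ± 0.17 for ILMN_2663374 (adjusted p = 0.294, limma) and 0.32 ± 0.13 for ILMN_2668472 (adjusted p = 0.233, limma). At 6 h the changes were -0.03 ± 0.17 for ILMN_2663374 and -0.02 ± 0.13 for ILMN_2668472.

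Whether probes of 1 gene changed by different amounts was tested with limma's diffSplice over the 3260 genes with more than 1 tested probe, a test chosen after the values were seen. At 12 h against control Nr1h3 had a p of 0.00443 (adjusted 0.195) and Nr1i3 a p of 0.0245 (adjusted 0.484), beside 0.613% of genes called. At 6 h against control 0.184% of genes were called and neither of these. At 12 h against 6 h Nr1i3 had a p of 0.000962 (adjusted 0.241) and Nr1h3 a p of 0.00282 (adjusted 0.421), where 0% of genes were called. Neither gene passed after adjustment, and the transcripts that each probe reads were not analysed here.

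The receptors of hepatocyte identity and bile acid synthesis did not pass the test at either time. Hnf4a, which holds much of the hepatocyte programme in place, read 12.10, 12.08, 12.19 and 12.43 at 6 h, 12.24, 12.37, 12.40 and 12.54 at 12 h, and 12.51, 12.46 and 12.08 in controls with its only probe, ILMN_1237767. The ranges overlapped throughout, and the changes were -0.15 ± 0.14 at 6 h (95% interval -0.47 to 0.16) and 0.04 ± 0.14 at 12 h (95% interval -0.28 to 0.35). Nr5a2, a receptor that drives bile acid synthesis genes, gave 0.20 ± 0.13 at 6 h and 0.09 ± 0.13 at 12 h with ILMN_2634389. That probe read 9.25 to 9.46 at 6 h, 9.12 to 9.49 at 12 h and 9.02 to 9.38 in controls, so the groups overlapped.

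Another Nr5a2 probe, ILMN_2813203, read 6.85 to 7.44 at 6 h, 6.70 to 7.18 at 12 h and 6.99 to 7.28 in controls. Its changes were -0.05 ± 0.17 at 6 h and -0.11 ± 0.17 at 12 h. The last, ILMN_2751680, was detected on 1 array of each group and gave 0.08 ± 0.20 and 0.11 ± 0.20 at 6 h and 12 h, values that rest on signal near background.

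Rxra, the shared dimer partner, read 8.56, 8.24, 8.72 and 8.0 at 6 h, 8.72, 8.70, 8.84 and 8.62 at 12 h, and 8.55, 8.71 and 8.38 in controls (ILMN_2741479). The lowest levels, 8.0 and 8.24, belonged to livers at 6 h, and the ranges of both treated groups overlapped that of controls. Its changes were -0.17 ± 0.17 at 6 h (adjusted p = 0.680, limma) and 0.18 ± 0.17 at 12 h (adjusted p = 0.634, limma).

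Thrb and Nr4a1 could not be followed with this array. The Thrb probe, ILMN_2698682, had bead signals of 75.1 to 97.8 at 6 h, 79.7 to 98.5 at 12 h and 80.2 to 95 in controls, and its lowest detection p-values were 0.139, 0.222 and 0.121 in the same order of groups. The Nr4a1 probe, ILMN_2701881, had bead signals of 77.5 to 87.5 at 6 h, 71.6 to 86.3 at 12 h and 77.5 to 80.8 in controls, with lowest detection p-values of 0.592, 0.569 and 0.656. Neither was above background on any of the 11 arrays, so no fold is given. A probe without signal does not show that its transcript is missing: the single probes of Fgb, a fibrinogen chain that hepatocytes secrete in bulk, and of Nr3c1, the glucocorticoid receptor, were also undetected on all arrays.

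Between the treated groups, 0 of the 16 tested probes passed the test of 12 h against 6 h, beside 0.872% of all tested probes called (0.471% higher and 0.401% lower). Without adjustment 6 of the 16 had a p under 0.05, beside 14.5% of all tested probes. For the 14 probes detected on all arrays, differences ran from -0.46 to 0.34, and all 14 unadjusted 95% intervals lay within a 2-fold change, with the farthest limit at 0.82. At 12 h every liver was above every liver at 6 h for Nr1h3 ILMN_2668472 (0.34 ± 0.12, adjusted p = 0.226 by limma) and Esrra ILMN_2766521. Every liver at 12 h was below every liver at 6 h for Nr1i3 ILMN_1232024 (-0.46 ± 0.17, adjusted p = 0.230 by limma) and Nr1h3 ILMN_2663374 (-0.33 ± 0.16, adjusted p = 0.365 by limma). Such separation upward was seen in 3.49% and downward in 5.65% of all tested probes. Rxra was higher at 12 h than at 6 h by 0.34 ± 0.16, with an adjusted p of 0.345 by limma and overlapping ranges. Both comparisons with control used the same 3 control livers, so the changes at 6 h and at 12 h are not independent of each other.

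Markers of cell types were read on the same arrays. The summed log2 level of a list is the log2 of the sum of its measured markers' linear normalized signals on an array. Bright markers therefore weigh most in it. Of the hepatocyte markers, which check the labelled tissue, 8 of 10 were measured and 0 called at either time, with a summed log2 level of 17.34 to 17.68 at 6 h, 17.58 to 17.66 at 12 h and 17.59 to 17.64 in controls. Kupffer cell and macrophage markers were below control at both times in 10 of 10 measured genes, by a median of -0.39 at 6 h and -0.63 at 12 h with 0 called. Their summed log2 level was 12.06 to 13.27 at 6 h, 11.96 to 12.59 at 12 h and 12.61 to 13.16 in controls. Lymphocyte markers were below control in 4 of 4 measured genes at both times, by a median of -0.08 at 6 h and -0.67 at 12 h with 0 called, and summed to 7.56 to 8.91 at 6 h, 7.70 to 8.47 at 12 h and 8.56 to 9.05 in controls. Stellate cell markers were below control in 5 of 6 measured genes at 6 h and 6 of 6 at 12 h, by medians of -0.19 and -0.43, and summed to 13.32 to 13.70 at 6 h, 13.13 to 13.35 at 12 h and 13.46 to 13.70 in controls. Sinusoidal endothelial markers, 7 of 8 measured and 0 called, had median changes of 0.18 at 6 h and -0.05 at 12 h and summed to 13.00 to 13.36 at 6 h, 12.82 to 12.88 at 12 h and 12.98 to 13.04 in controls. At 12 h the sums of these 4 cell types thus lay below those of all controls, a separation that 10.6% of all tested probes, taken singly, had. Bright genes weigh most in such sums: Clec4g averaged 12.53 at 12 h among the endothelial markers and Dcn 12.63 among the stellate cell markers. Taken by gene, 6 of the 7 endothelial markers were below control at 12 h and 1 above. Erythroid markers were above control in 5 of 5 measured genes, by a median of 0.70 at 6 h and 0.36 at 12 h, with a summed log2 level of 15.78 to 16.11 at 6 h, 15.63 to 15.91 at 12 h and 14.69 to 15.65 in controls. Neutrophil markers, 3 of 8 measured, had overlapping sums of 7.58 to 9.27 at 6 h, 7.46 to 8.67 at 12 h and 6.66 to 8.19 in controls. Of these S100a9 was undetected in controls and met the detection requirement only through treated livers. Its mean was at least 1.98-fold higher at 6 h and at least 1.67-fold higher at 12 h, bounds that carry no sampling error. Ltf differed by 0.00057 at 6 h and -0.32 at 12 h, and neither S100a9 nor Ltf was called. Cholangiocyte markers, 5 of 7 measured, were below control in 4 of 5 at 6 h and 5 of 5 at 12 h, by medians of -0.13 and -0.25. Pancreatic acinar markers, 5 of 8 measured, had median changes of 0.14 at 6 h and 0.16 at 12 h. Both lists had 0 called at either time and overlapping sums. The marker genes called were the neutrophil gene S100a8 and the stellate cell gene Lrat, beside 0.807% of all tested probes called at 6 h and 2.69% at 12 h. S100a8 was higher by 2.01 at 6 h (adjusted p = 0.0453, limma) and 1.70 at 12 h (adjusted p = 0.0492, limma). Lrat was lower at 12 h by -1.07 (adjusted p = 0.0340, limma). Each of these calls was lost without any 1 control array, at an adjusted p up to 0.175 and 0.168 for S100a8 at 6 h and 12 h and up to 0.165 for Lrat. Treated arrays mattered too: with 1 of the 11 arrays left out, the S100a8 call held in 2 fits at 6 h and 3 at 12 h, and that of Lrat in 5. With the authors' values all were lost (adjusted p = 0.0567 and 0.0561 for S100a8 and 0.0565 for Lrat, limma). The part of these shifts in the Esrra and Nr1i2 values was not tested.

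Among 11781 probes compared, those most like Esrra ILMN_2972292, the brighter Esrra probe, over the 11 arrays were Dap3 with a correlation of 0.97, Pcbd2 with 0.95 and Brf2 with 0.95. The probes compared left out those of Esrra and those whose symbols look like clone or predicted names. These correlations include the differences between groups and are given as a description. None of the 3 passed the test, with changes at 6 h of -0.30 for Dap3 (adjusted p = 0.278), -0.41 for Pcbd2 (adjusted p = 0.20) and -0.38 for Brf2 (adjusted p = 0.193), all by limma.

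Of 23 measured target genes of Esrra 0 were called at 6 h, where 10 had an unadjusted p under 0.05, beside 0.807% and 15.9% of all tested probes. Changes of the 23 at 6 h were above zero in 9 and below in 14, with a median of -0.04. Under other processing, 3 of these targets were called lower at 6 h without background correction, 2 with no filter and 2 with trend and robust variance. At 12 h, with the same median, 1 target was called higher, Lpin1, a phosphatidate phosphatase and coregulator, by 2.15 ± 0.28 (adjusted p = 0.000983, limma). Sirt3, the mitochondrial deacetylase, was called lower by -0.51 ± 0.12 (adjusted p = 0.0335, limma). Beside these, 1.63% of all tested probes were called higher at 12 h and 1.05% lower. The coactivator Ppargc1a differed by -0.27 at 6 h (adjusted p = 0.401, limma) and -0.28 at 12 h (adjusted p = 0.346, limma). The Sirt3 call was lost, at an adjusted p up to 0.127, without any 1 control array and without array 1, 2 or 3 at 12 h, as well as under median centring (0.113) and with chip as a fixed block (0.285).

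Targets of the xenobiotic receptors had 0 of 22 called at 6 h (3 with an unadjusted p under 0.05) and 1 at 12 h, Gadd45b, a stress-response gene, at 3.42 ± 0.22 (adjusted p = 2.75e-06, limma). The dimmer Gadd45b probe, ILMN_1246065, gave a smaller change of 1.83 at 12 h (adjusted p = 0.000219, limma). For all tested probes the called shares were 0.807% at 6 h and 2.69% at 12 h, and 15.9% had an unadjusted p under 0.05 at 6 h. The change of the PXR target Cyp3a11 was 0.12 at 6 h and 0.13 at 12 h. That of the CAR target Cyp2b10, which shares sequence with near-identical paralogs and is listed on the array as Cyp2b20, was 0.43 at 6 h and -0.05 at 12 h, and neither gene passed. Medians of these 22 changes were 0.19 at 6 h and 0.17 at 12 h.

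For LXR targets 0 of 15 and for HNF4A targets 0 of 24 passed at each time, with medians between -0.09 and 0.06. An unadjusted p under 0.05 was reached at 6 h by 1 LXR target and 1 HNF4A target, and at 12 h by 2 LXR targets and 0 HNF4A targets. The share of all tested probes was 15.9% at 6 h and 17.6% at 12 h. Without control array 2, 1 LXR target was called at 12 h. The 13 LRH-1 targets had a median change of 0.25 at 6 h and 0.23 at 12 h. Among them Plk3, a stress-responsive kinase, was called at 6 h (2.39 ± 0.22, adjusted p = 0.000120, limma) and again at 12 h (3.35 ± 0.22, adjusted p = 2.75e-06, limma). Got1, the cytosolic aspartate aminotransferase, joined it at 12 h with 0.98 ± 0.16 (adjusted p = 0.00420, limma). Beside these calls, 0.542% of all tested probes were called higher at 6 h and 1.63% at 12 h. Cyp7a1, the rate-limiting enzyme of bile acid synthesis, differed by 0.19 at 6 h and -0.70 at 12 h without passing (adjusted p = 0.798 and 0.237, limma), and the probe of Nr0b2 (SHP), the repressor that acts on Nr5a2, was not detected.

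Among genes responsive to the receptors that could not be measured, calls were made at 12 h and none at 6 h, where 2 thyroid hormone targets and 4 NR4A targets had an unadjusted p under 0.05. Without array 4 at 6 h, 2 thyroid hormone targets and 1 NR4A target were called at 6 h. Median changes were 0.03 at 6 h and -0.11 at 12 h for the thyroid hormone targets, and 0.35 and 0.54 at those times for the NR4A targets. Of 17 thyroid hormone targets 3 were called higher at 12 h, among them Klf9, a Kruppel-like factor listed as Bteb1, by 0.99 ± 0.15 (adjusted p = 0.00300, limma) and G6pc, the last enzyme of glucose release, by 0.62 ± 0.14 (adjusted p = 0.0310, limma). Of 12 NR4A targets 3 were called higher at 12 h, namely Lpin1, G6pc and Pck1, the gluconeogenic enzyme, which was higher by 1.38 ± 0.31 (adjusted p = 0.0332, limma). Beside the counts of both lists, 1.63% of all tested probes were called higher at 12 h, and 15.9% had an unadjusted p under 0.05 at 6 h. The calls of G6pc and Pck1 were lost, with adjusted p up to 0.127 and 0.149, without control array 1 or 3 or array 1, 2 or 4 at 12 h, and that of G6pc also without control array 2. Both were lost under median centring (0.144 for G6pc and 0.0743 for Pck1) and with chip as a fixed block (0.184 for G6pc and 0.240 for Pck1). The G6pc call was also lost with the replicate block (0.0701), and that of Pck1 with no filter (0.103) and with the authors' values (0.0528). Other probes did not pass at 12 h for Pck1 (1.24, adjusted p = 0.109, limma) and for Klf9 (0.75, adjusted p = 0.414, limma). Many regulators act on these genes, and the part of Thrb and Nr4a1 in their levels was not tested.

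Among 27 measured nuclear receptors outside the 9, the clock repressor Nr1d1 was called at 12 h, by 4.25 ± 0.36 (adjusted p = 1.98e-05, limma), and differed by 1.34 ± 0.36 at 6 h (adjusted p = 0.113, limma). Its second probe gave 1.39 at 6 h with an adjusted p of 0.0325 by limma, so the side of the threshold at 6 h depended on the probe. By the brightest probe of each gene 0 of the 27 were called at 6 h, 7 had an unadjusted p under 0.05, and 1 was called without array 4 at 6 h. Among all tested probes 0.807% were called at 6 h and 2.69% at 12 h, and 15.9% had an unadjusted p under 0.05 at 6 h. The median change of the 27 was 0.00 at 6 h and -0.02 at 12 h. The fatty acid receptor Ppara differed by 0.30 at 6 h and 0.34 at 12 h, and the bile acid receptor Nr1h4 by 0.10 at 6 h and 0.01 at 12 h, neither called. Nr4a2, the closest relative of Nr4a1 with a measured probe, was detected on 3 of 4 arrays at 6 h, 3 of 4 at 12 h and 0 of 3 in controls, where it was not above background. Its mean was at least 1.18-fold higher at 6 h and at least 1.38-fold higher at 12 h, against the lowest signal detected on control arrays. These bounds carry no sampling error, and the ranges overlapped those of controls. Neither change passed (adjusted p = 0.306 and 0.134, limma), and the probe met the detection requirement only through treated livers. Nr4a3 was detected on 1 array and was not tested. Of 18 measured coactivators and corepressors 0 were called at 6 h and 0 at 12 h. An unadjusted p under 0.05 was reached by 3 at 6 h and 1 at 12 h, beside 15.9% and 17.6% of all tested probes.

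**Figure D4:**
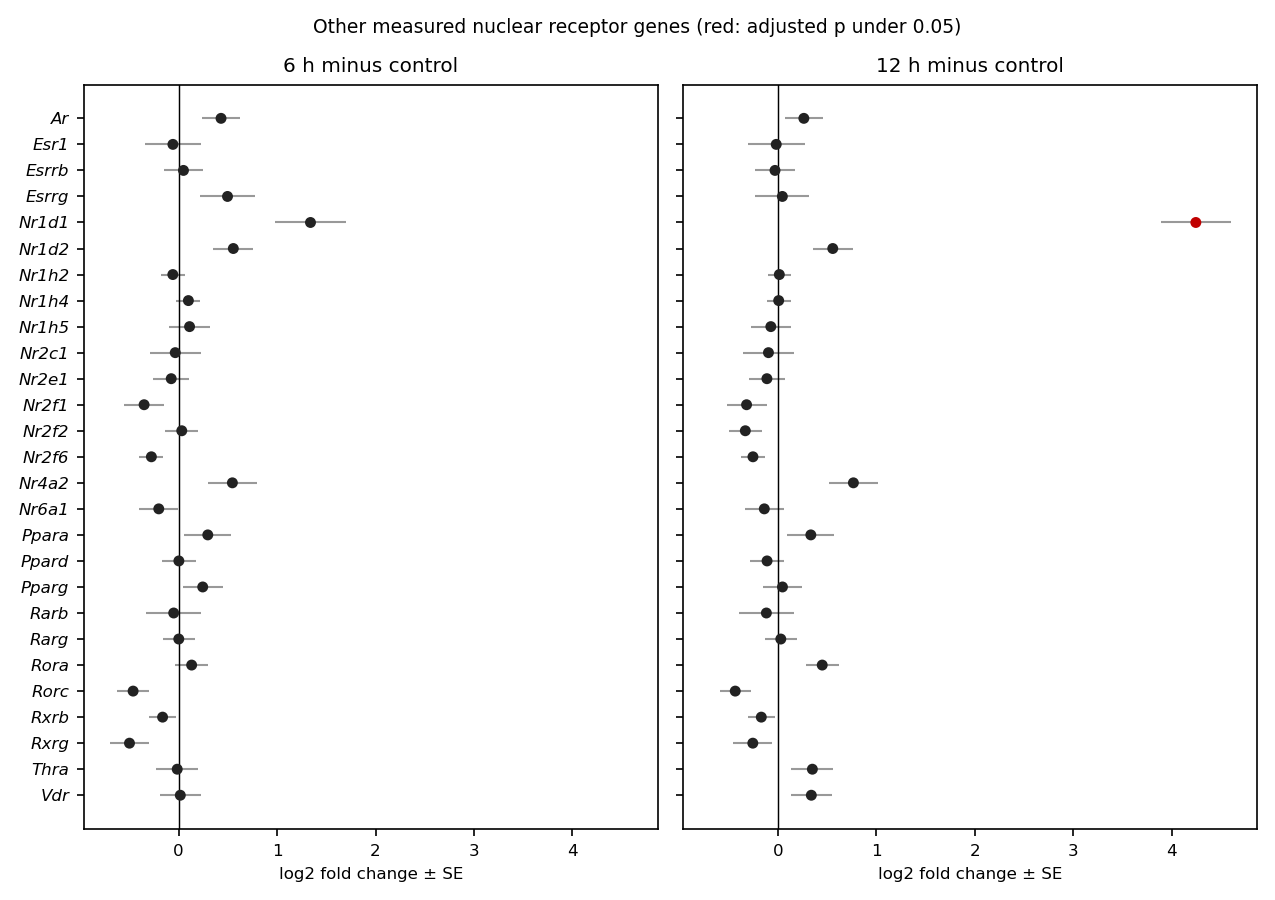
Change in log2 units, at 6 h and at 12 h against control, of the 27 measured nuclear receptor genes outside the 9, by the brightest tested probe of each gene, with bars for the SE. Nr1d1 at 12 h, at 4.25, is the only point past the threshold in this set of probes.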

How the data were processed

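Liver RNA of 11 mice was hybridised to Illumina bead arrays. The deposited non-normalized table gives a bead signal, an intensity on a linear scale, and a detection p-value per probe and array, exported by the authors with GenomeStudio per the submitters' processing notes; its version is not given in the sources used here. The authors also deposited a table of normalized values, 38.5% of them below 0, whose normalization is not stated. It was read as linear, with values under 16 set to 16 before the log2 step, and served as an alternative only. Samples were grouped by the labels.

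Intensities were corrected with normexp from the detection p-values (offset 16), quantile normalized and log2 transformed with neqc of limma 3.58.1 (R 4.3.3). The tests covered the 16978 of 45281 probes (37.5%) with detection p under 0.05 on 3 or more arrays. One linear model of group means over all 11 arrays, with empirical Bayes moderation (12.3 total degrees of freedom), gave 3 comparisons, each adjusted by Benjamini-Hochberg over the kept probes. Precision is limited by the number of arrays. The labels name 1 mouse per array, so the p-values rest on the spread between arrays of different animals. The main fit does not separate animal, array and chip within that spread.

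The 9 genes and the pathway and marker lists were chosen with earlier results of these data known. Every probe of the 9 genes was named, as were the 3 compared probes most correlated with the brighter Esrra probe. From each pathway list up to 3 called genes with the largest change per comparison with control were named, each by its brightest kept probe. Nr0b2, Ppara, Nr1h4, Nr1d1, Nr4a2, Nr4a3, Ppargc1a, Cyp3a11, Cyp2b10 and Cyp7a1 were always named in the same way. A further gene that this rule names is not reported here. An "at least" fold sets the detected group's mean against the lowest detected signal, or the probe's own where higher, on each array of the other group. It is a ratio of means without a sampling error. Gene symbols are those of the array, brought up to date through RefSeq where possible (13424 current, 8145 by synonym, 9939 unmatched). Alternatives were other background, scaling, filter, probe, variance, weighting, batch and replicate choices.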

Additional observations from a re-analysis of the deposited data

Results flagged for a closer look

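Among the 16 tested receptor probes 0 differed between 12 h and 6 h past the threshold, and 5 genes of their pathway lists did, by limma's test of that difference over all tested probes. The share of all tested probes past it was 0.872%. Nr1d1 was 2.91 higher on the log2 scale at 12 h than at 6 h, Gadd45b 2.55 higher, Lpin1 1.53 higher and Klf9 0.69 higher, each by its brightest tested probe. Fbp2, a muscle-type fructose bisphosphatase, was 0.99 higher in the fit. Since it was not above background at 6 h, its ratio of means is given as at least 1.85. No single array stood apart from its group in the 32 groups of 4 arrays examined for the tested receptor probes, where chance gives about 1 in 20.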

How the results depend on the processing

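Of the 1048 values obtained for the tested receptor probes under alternative settings, 987 kept their direction and their side of the threshold, 14 lost the Esrra call at 6 h and 47 changed sign, none of them a called change. The number of receptor probes called at 6 h was 0 in place of 1 under median centring, with 1 probe per gene (the brighter Esrra probe is then used), with the replicate block, with chip as a fixed block and with only the compared groups, and 0 to 1 without 1 array; at 12 h and for 12 h against 6 h it was 0 to 0 without 1 array. Over all probes, the 137 calls at 6 h became 326 without background correction, 268 under median centring, 250 with trend and robust variance, 67 with chip as a fixed and 231 as a random block, 58 with only the compared groups, and 70 to 232 without 1 array. The 456 calls at 12 h became 301 with the strict filter, 942 with array weights, 159 with chip as a fixed block, 950 with only the compared groups and 264 to 564 without 1 array. The 148 calls of 12 h against 6 h became 287, 843, 230 and 7 without background correction, under median centring, with trend and robust variance and with chip as a fixed block, and 57 to 169 without 1 array. Median centring moved the median of all probes to 0.13, -0.09 and -0.20 (6 h, 12 h and 12 h against 6 h) and the percentage of higher calls to 93.7%, 63.2% and 9.02%, against 67.2%, 60.7% and 54.1%. Signs turned by it were, at 6 h, Nr1i3 ILMN_1212992 (0.018), ILMN_1254075 (0.18) and ILMN_2926661 (0.11), Nr1h3 ILMN_2663374 (0.066) and ILMN_2668472 (0.17), Nr5a2 ILMN_2813203 (0.13) and Rxra (0.012); at 12 h, Hnf4a (-0.087) and Nr5a2 ILMN_2634389 (-0.0039); and at 12 h against 6 h, Nr1i2 (-0.075), Nr1i3 ILMN_2588846 (-0.18) and ILMN_2926661 (-0.084), Hnf4a (-0.049), Nr5a2 ILMN_2751680 (-0.0082), Esrra ILMN_2766521 (-0.034) and ILMN_2972292 (-0.20). The authors' values turned Nr5a2 ILMN_2751680 at 6 h (-0.000607). Array weights turned Nr1h3 ILMN_2663374 (0.027) and ILMN_2668472 (0.031) at 6 h, Hnf4a at 12 h (-0.035) and Nr5a2 ILMN_2751680 at 12 h against 6 h (-0.0037), and chip as a fixed block turned Nr1i3 ILMN_2926661 at 12 h (-0.0016). Leaving out 1 array gave, at 6 h, -0.16 to 0.015 for Nr1i3 ILMN_1212992, -0.067 to 0.17 for ILMN_1232024, -0.12 to 0.14 for ILMN_1254075, -0.13 to 0.049 for ILMN_2926661, -0.21 to 0.13 and -0.094 to 0.052 for Nr1h3 ILMN_2663374 and ILMN_2668472, and -0.048 to 0.17 and -0.18 to 0.040 for Nr5a2 ILMN_2751680 and ILMN_2813203. At 12 h it gave -0.097 to 0.12 for Hnf4a and -0.013 to 0.22 for Nr5a2 ILMN_2751680, and at 12 h against 6 h -0.14 to 0.0075 for Nr1i3 ILMN_1212992, -0.0096 to 0.12 for ILMN_2588846, and -0.065 to 0.14 and -0.13 to 0.066 for Nr5a2 ILMN_2751680 and ILMN_2813203. The cause of these changes was not tested. The main fit used no pairing by replicate number. Deviations from group means of same-numbered arrays correlated between -0.21 and 0.45, over 0.1 in 4 of 10 pairs, and those of differently numbered arrays between -0.41 and 0.30. The 0.45 came from 2 arrays on the same chip, so these values cannot tell whether the numbers pair the animals. With the replicate block 125 probes were called at 6 h, the Esrra ILMN_2766521 change was -0.54 (adjusted p = 0.107, limma) and Hnf4a at 12 h turned to -0.028. Signal over background limits the 2 probes detected on 3 arrays, and leaves Thrb and Nr4a1 unmeasured.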
